A study of Mus musculus with 13 samples.

Results

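The 13 arrays of left ventricular (LV) RNA were sorted by their signal for Nr1h3, the gene of LXRα, with the labelled genotype set aside. The brightest Nr1h3 probe read over 10000 on 5 arrays and under 1000 on 8, and these are called the high and the low arrays. Their members were thus chosen on a measured value, and Nr1h3 itself enters no test below. The 5 high arrays were Wt sham replicate 3, LXRα-Tg sham replicate 3, Wt TAC replicate 2 and LXRα-Tg TAC replicates 1 and 2, with Nr1h3 signals of 27568.2, 25186.7, 31926.6, 31975.4 and 27541.5 in this order, which is kept throughout. The 8 low arrays read between 163.2 and 396.7. The array nearest the limit from above was thus at 25186.7 and the nearest from below at 396.7, and none lay between. A second Nr1h3 probe read 2257.9 to 4985.2 on the high arrays and 10.6 to 23.1 on the low ones, and it sorted 13 of 13 arrays in the same way.

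The study compared LXRα-Tg mice, which carry murine Nr1h3 under the cardiomyocyte-specific αMHC promoter, with wild-type (Wt) littermates, 5 weeks after transverse aortic constriction (TAC), which loads the LV with pressure, or after sham surgery. All animals were labelled as male C57BL/6 mice of 4 months, and the founders were made in FVB oocytes and backcrossed to C57BL/6. Sham surgery is the label of 3 Wt and 3 LXRα-Tg arrays, and TAC that of 4 Wt and 3 LXRα-Tg arrays. The replicate numbers were assigned here, in the order of the arrays within each labelled group, and are not part of the labels. Since no label ties the arrays to separate mice, p-values cover the scatter among arrays, which may be technical.

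The high set held 2 sham and 3 TAC arrays, and the low set 4 and 4. By label, the high set held 2 Wt and 3 LXRα-Tg arrays, and the low set 5 and 3, so that the Nr1h3 level went against the genotype label on 5 of 13 arrays. For this reason the sets are named by their signal, not by genotype. Both sets lay on both slides (2 and 3 high arrays, 4 and 4 low ones), but both high sham arrays lay on slide 2. Wt sham replicate 1 and LXRα-Tg TAC replicate 3, both low and labelled male, gave no detected signal for the Y-linked gene Eif2s3y. Wt sham replicate 3 and LXRα-Tg TAC replicate 1, both high, carried the most liver and kidney marker signal, and values without them are given below. Detected probes numbered 9829 to 10360 on the high arrays and 9454 to 10392 on the low ones, and the number of arrays limits the precision.

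**Figure D1:**
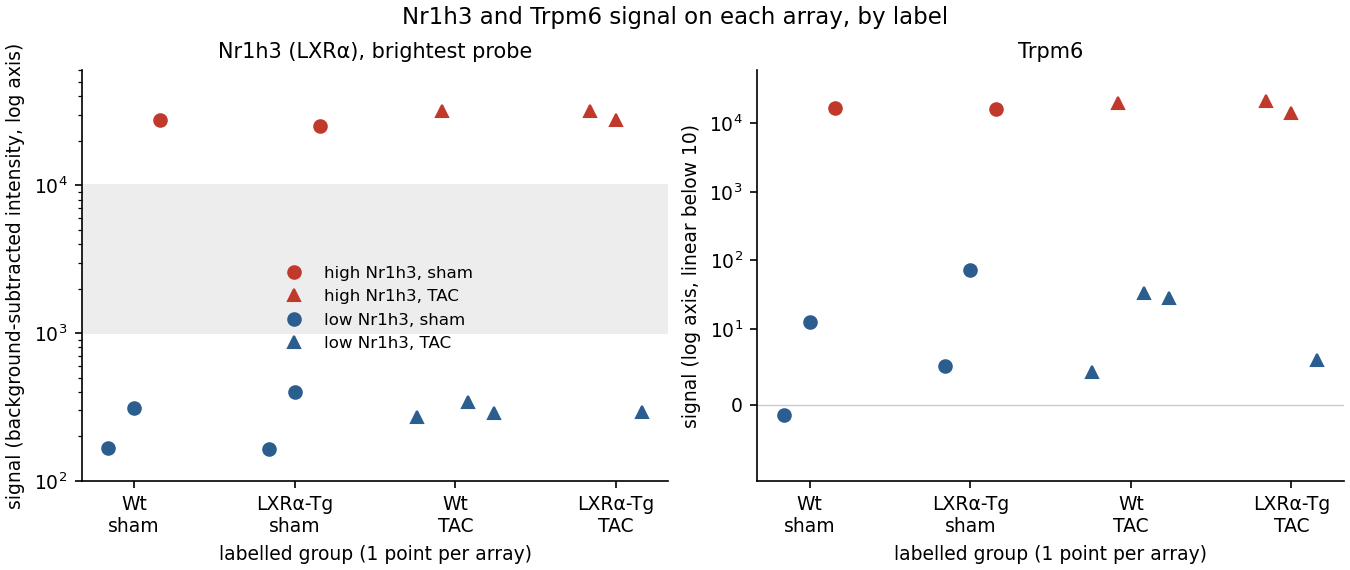
Signal of the brightest Nr1h3 probe (left, log axis; the grey band lies between the limits of 1000 and 10000) and of Trpm6 (right, log axis, linear below 10) on each of 13 arrays, by labelled group; red points are high and blue points low arrays, circles sham and triangles TAC. Each labelled group held at least 1 array of each set, and Trpm6 split the arrays in the same way as Nr1h3, at 14365 and above on the high arrays and 72.2 and below on the low ones.

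LXRα is a nuclear receptor that is switched on by oxidised cholesterol. Paired with the retinoid X receptor, it binds direct repeats of a short core motif and turns on genes of cholesterol efflux and fatty acid (FA) synthesis, among them Abca1, Srebf1 and Scd1. The adult heart burns mainly FA, and under pressure overload it shifts towards glucose and turns on fetal genes such as Nppa and Nppb.

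Of 7836 genes tested beside Nr1h3, 54 (0.689%) differed between the high and the low arrays with surgery as a covariate (limma, Benjamini-Hochberg adjusted p under 0.05). Of these, 28 (0.357%) were higher and 26 (0.332%) lower on the high arrays. The magnesium channel gene Trpm6, the Wnt inhibitor Wif1 and the lectin Lgals3 were among those that rose. The acyl-CoA thioesterases Acot1 and Acot2, the gluconeogenic enzyme Fbp2 and the sodium channel subunit Scn4b fell. The median log2 fold change, high minus low throughout, was 0.87 among the genes that rose and −0.79 among those that fell, against −0.01 over all genes tested. Changes over 1 on the log2 scale were found for 10 genes that rose and 6 that fell. At an unadjusted p under 0.05, 699 genes (8.92%) passed. In 49 of the 54 called genes the 5 high and 8 low arrays did not overlap, which was so for 95 (1.21%) of all genes. These were 26 of the 28 that rose and 23 of the 26 that fell, against 47 (0.6%) and 48 (0.613%) of all genes. The genes were called on these same arrays, which favours a lack of overlap, so it is no separate support. Among the 28 that rose, 6 were detected on 0 low arrays. With the genotype label in place of the Nr1h3 level, a comparison added after seeing the data, 0 genes were called and 838 passed at an unadjusted p under 0.05.

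**Figure D2:**
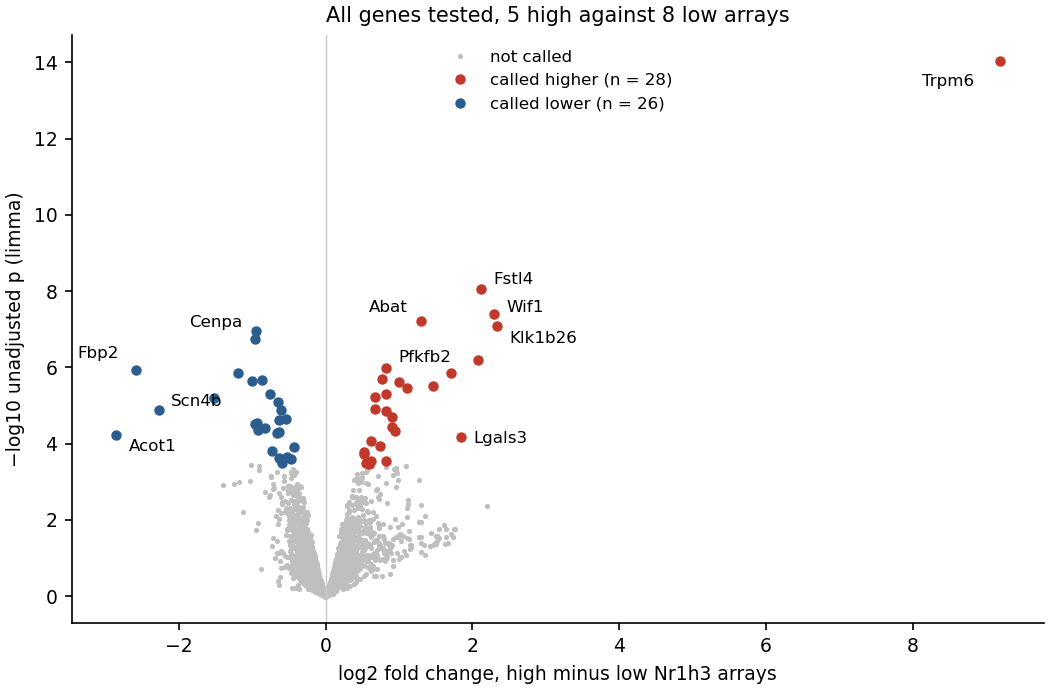
Log2 fold change of each of 7836 genes, high minus low arrays, against −log10 of the unadjusted p from limma; red points were called higher (28), blue points lower (26) and grey points were not called. Trpm6 stands alone at 9.18, while the other called genes lie between −2.86 and 2.33.

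Promoter sequences from RefSeq (GRCm38.p6) are shown for Trpm6, which rose most, for Acot1 and Fbp2, which fell most, and for Acot2, the neighbour of Acot1. Each runs 5′ to 3′ over 250 bases before the annotated start, and the last letter, in capitals, is the first base of the transcript. Other capitals mark the nuclear receptor core motif AGGTCA or its form GGGTCA, on either strand. They lie at chr19:18749480-18749730 (+ strand) for Trpm6, chr12:84009252-84009502 (+) for Acot1, chr12:83987611-83987861 (+) for Acot2 and chr13:62858400-62858650 (− strand) for Fbp2.
Trpm6: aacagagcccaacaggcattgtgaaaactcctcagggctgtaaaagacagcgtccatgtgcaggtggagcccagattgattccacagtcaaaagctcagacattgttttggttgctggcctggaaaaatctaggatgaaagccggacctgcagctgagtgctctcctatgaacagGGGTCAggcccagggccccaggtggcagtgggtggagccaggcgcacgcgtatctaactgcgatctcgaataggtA
Acot1: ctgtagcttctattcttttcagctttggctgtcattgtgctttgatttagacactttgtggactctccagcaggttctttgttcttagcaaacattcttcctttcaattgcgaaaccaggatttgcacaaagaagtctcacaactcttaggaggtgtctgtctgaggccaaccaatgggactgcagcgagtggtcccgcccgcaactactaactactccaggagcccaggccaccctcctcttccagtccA
Acot2: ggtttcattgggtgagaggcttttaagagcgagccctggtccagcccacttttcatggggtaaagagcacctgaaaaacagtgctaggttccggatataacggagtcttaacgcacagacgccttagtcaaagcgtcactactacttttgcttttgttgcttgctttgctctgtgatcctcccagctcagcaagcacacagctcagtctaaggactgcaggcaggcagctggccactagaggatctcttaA
Fbp2: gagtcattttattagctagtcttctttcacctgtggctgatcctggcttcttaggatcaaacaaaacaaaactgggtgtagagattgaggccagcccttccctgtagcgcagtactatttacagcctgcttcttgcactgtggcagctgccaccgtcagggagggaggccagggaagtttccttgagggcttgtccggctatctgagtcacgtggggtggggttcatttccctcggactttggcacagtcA

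Of these 4 stretches, that of Trpm6 held 1 core motif, of the form GGGTCA, which starts at base 176, and the other 3 held none. Promoters of 300 bases were found for 41 of the 54 called genes. The LXR type repeat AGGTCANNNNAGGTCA was in 0.0152% of all 32851 promoters and in 0 of the 6399 genes tested that had a promoter. A count of 0 among the 41 was thus fixed beforehand. The PPAR type repeat AGGTCANAGGTCA was in 0.0396% of promoters, in 2 of the 6399 genes and in 0 of the 41, too rare to compare. The core motif AGGTCA was found for 5 of the 41 called genes (12.2%) and for 15.1% of the 6399 genes tested that had a promoter. The form GGGTCA was found for 11 (26.8%) and 17.3%. These windows are short, both strands were searched, and the core motif is part of the repeats.

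Trpm6 encodes a channel and kinase that carries magnesium, known from kidney and gut. Its signal was 16878.2, 16108.2, 20132.4, 21160.9 and 14365 on the 5 high arrays, and from −1.4 to 72.2 on the low ones, where the median was 9.15. The probe was detected on 5 of 5 high and 3 of 8 low arrays, and the sets did not overlap. After normalisation the log2 fold change was 9.18 (standard error 0.27, adjusted p = 7.39e-11 from limma), a size that is uncertain because 5 low arrays lay at background. A second Trpm6 probe gave 8.74, and another, detected on no array, −0.04. Trpm6 was called in each of 32 settings that varied the processing or the arrays, slide 1 alone (9.78) and slide 2 alone (8.46) included.

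Klk1b26, a serine protease of the kallikrein family, had normalised log2 intensities of 7.96, 6.68, 6.65, 7.84 and 7.19 on the high arrays, and 4.35 to 5.28 (median 4.96) on the low ones. It was detected on 5 of 5 high and 2 of 8 low arrays, so that most low values lay at background and the size of the fold is uncertain. The sets did not overlap, and the log2 fold change was 2.33 (standard error 0.23, adjusted p = 0.000131 from limma). The highest values, 7.96 and 7.84, lay on the arrays with the most liver and kidney signal, and without both of them the difference was 1.87 (adjusted p = 0.00022 from limma). Genes of this family are close paralogs, and its probe could share signal. Wif1, which binds Wnt proteins outside the cell and blocks them, was at 7.98, 7.70, 8.08, 8.70 and 7.95 against 5.17 to 6.73 (median 5.71). Its change was 2.29 (standard error 0.21, adjusted p = 0.000104), and the nearest low array was LXRα-Tg TAC replicate 3, at 6.73. Fstl4, a relative of follistatin, was at 7.38, 7.78, 8.21, 8.07 and 7.71 against 5.21 to 6.20 (median 5.75), a change of 2.11 (standard error 0.17, adjusted p = 3.34e-05). For both genes every high array lay above every low one.

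Lgals3 encodes galectin-3, a lectin of macrophages that is linked to cardiac fibrosis. It was at 8.61, 9.57, 9.36, 8.56 and 9.54 on the high arrays and at 6.33 to 8.50 (median 7.18) on the low ones, which nearly met. The log2 fold change of Lgals3 was 1.84 (standard error 0.33, adjusted p = 0.0130 from limma). The call was lost without LXRα-Tg TAC replicate 2 (1.73, adjusted p = 0.0521) and without LXRα-Tg sham replicate 3 (1.73, adjusted p = 0.0711). Lgals3 was the only called gene among the 12 macrophage markers tested (8.33%, against 0.357% of all genes called higher), whose median was 0.13. The summed signal of that list was 4177.9 to 5826.7 on the high and 3023.6 to 10463.1 on the low arrays. In bulk RNA, more cells of a type and more RNA per cell cannot be told apart.

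Tmprss13, a membrane-bound serine protease, rose by 1.46 (standard error 0.20, adjusted p = 0.00141 from limma), from a low median of 5.08 to between 6.31 and 7.09, and its second probe gave 1.95. It was detected on 4 of 8 low arrays. Dnajc5b, a co-chaperone of the DnaJ family, 5031410I06Rik, the basement membrane protein Lad1, the synapse organiser Cbln1, Trib3 and Crocc were detected on 0 low arrays, so that only a bound can be given. The bound sets the mean of the high arrays against that of the low arrays, each low array taken at its lowest detected signal or its own value, whichever is higher. These 6 genes, counted among the 28 that rose, passed the detection minimum through the high arrays alone. Klk1b26, detected on 2 low arrays, also reached the minimum of 3 arrays only with the high ones. All of these are also counted among the 26 that rose without overlap, which is thus no support for them. Dnajc5b was at least 2.84-fold higher, 5031410I06Rik at least 2.12-fold, Lad1 at least 1.38-fold, Trib3 at least 1.16-fold, Cbln1 at least 1.14-fold and Crocc at least 1.09-fold. In the other direction 2210407C18Rik was detected on all 8 low and on 0 high arrays and was at least 2.16-fold lower. It passed the detection minimum through the low arrays alone. Dnaic1 and Efnb3, each detected on 2 high and 8 low arrays, reached the minimum only with the low ones. These genes are counted among the 23 that fell without overlap, which is thus no support for them.

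**Figure D3:**
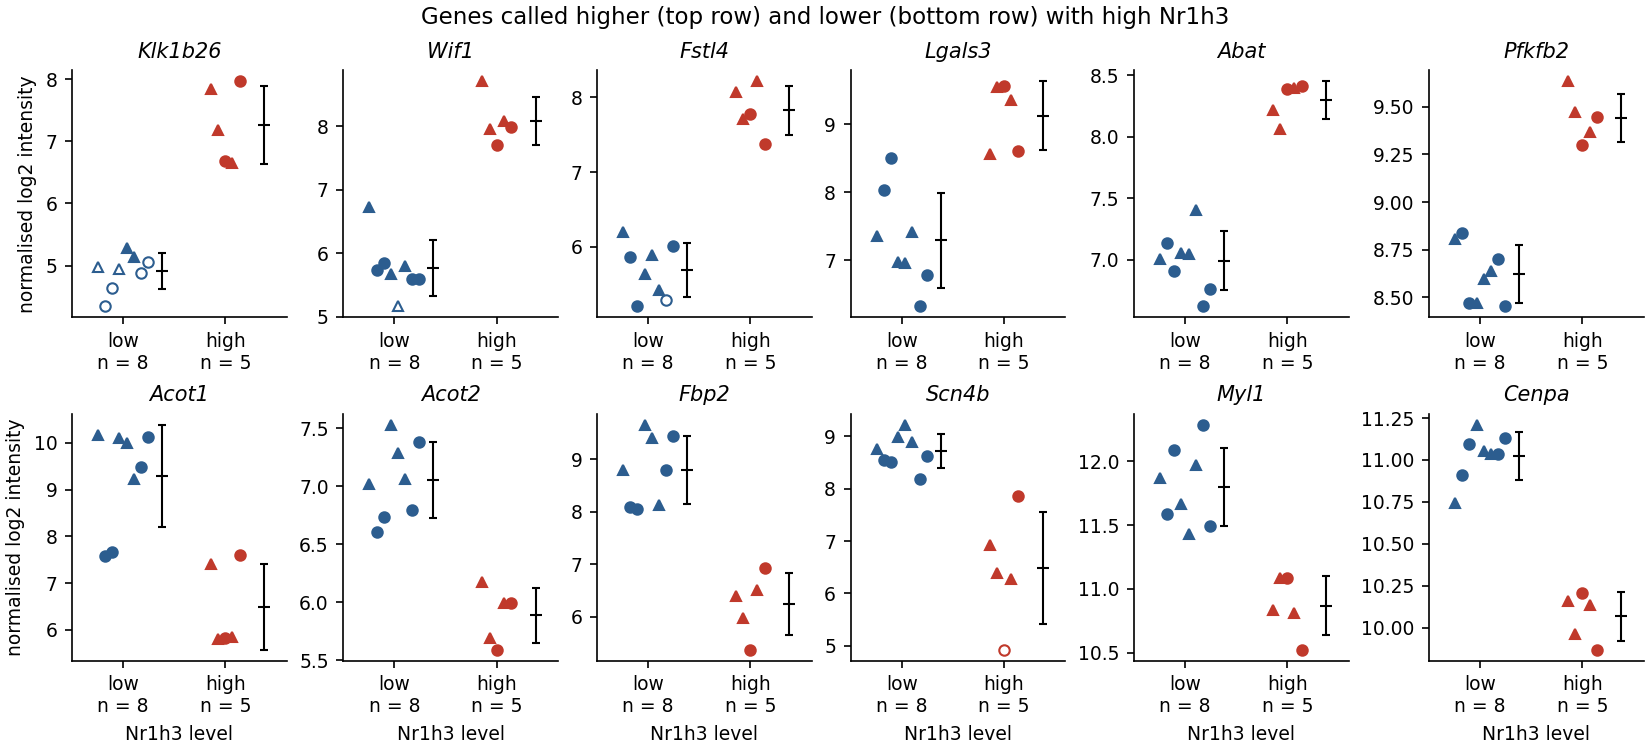
Normalised log2 intensity of 12 called genes on each array, low arrays (n = 8, blue) beside high arrays (n = 5, red); circles are sham and triangles TAC arrays, open points were not detected, and bars are the mean ± SD. In the top row each of 6 genes was higher and in the bottom row each of 6 was lower on the high arrays, and Acot1 is the one whose sets overlap.

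In FA metabolism the differences ran downwards. Acot1, which splits acyl-CoA in the cytosol into FA and coenzyme A, was at 7.60, 5.83, 5.85, 7.40 and 5.80 on the high arrays and at 7.57 to 10.16 (median 9.75) on the low ones. The sets overlapped only at Wt sham replicate 3 (7.60) and the lowest low array (7.57). Among the low arrays, LXRα-Tg sham replicates 1 and 2 were at 7.57 and 7.66, and all others at 9.23 to 10.16. Acot1 fell by 2.86 (standard error 0.50, adjusted p = 0.0117 from limma), and its second probe gave −1.78. Without LXRα-Tg sham replicate 3 the change was −2.76 (adjusted p = 0.0612). Acot2, its mitochondrial counterpart, was at 5.99, 5.59, 5.99, 6.17 and 5.69 against 6.61 to 7.53 (median 7.04), with no overlap, a change of −1.19 (standard error 0.15, adjusted p = 0.000929). Other Acot2 probes were detected on no array. Acot1 and Acot2 are close paralogs, and their probes could share signal.

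Among the 24 genes of FA uptake and oxidation that were tested, those were the 2 called, both lower (8.33%, against 0.332% of all genes), and 0 were higher. Of the list, 22 lay below 0, and its median was −0.28, against −0.01 over all genes. At an unadjusted p under 0.05, 10 of 24 were lower (41.7%, against 4.5% of all genes). Cpt2, which releases FA from carnitine inside mitochondria, was at −0.48 (adjusted p = 0.0778), Decr1, which handles unsaturated FA, at −0.56 (adjusted p = 0.159), and Acads, the first step of short-chain oxidation, at −0.38 (adjusted p = 0.148, sets not overlapping). The list's median lay between −0.50 and −0.12 over 33 settings that varied the processing or the arrays and was −0.37 without the 2 arrays richest in liver and kidney signal. Genes of branched-chain amino acid breakdown lay below 0 in 17 of 18 cases (median −0.14) and those of the respiratory chain and ATP synthase in 43 of 49 (median −0.07), with 0 called in either. Of all 7836 genes tested, 3657 lay above 0. Members of a list may vary together, so such sign counts, here and in the lists below, are not of independent genes. On slide 2 alone the median of the respiratory list was 0.02.

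Genes of glucose use moved singly. Fbp2, the muscle form of fructose-1,6-bisphosphatase, which runs against glycolysis, was at 6.94, 5.38, 6.51, 6.40 and 5.98 on the high arrays and at 8.06 to 9.66 (median 8.80) on the low ones. Every high array lay below every low one, and Fbp2 fell by 2.59 (standard error 0.32, adjusted p = 0.000929 from limma). Pfkfb2, the heart form of the enzyme that makes and removes the glycolytic activator fructose 2,6-bisphosphate, was at 9.45, 9.30, 9.37, 9.63 and 9.47 against 8.45 to 8.84 (median 8.62). Pfkfb2 rose by 0.82 (standard error 0.10, adjusted p = 0.000895), while its second probe, detected on 8 arrays, gave −0.02. Pdk4, a kinase that shuts off pyruvate dehydrogenase, was at 12.01, 11.70, 11.78, 13.01 and 12.31 against 10.66 to 11.84 (median 10.88), a difference of 1.09 that missed the threshold (standard error 0.24, adjusted p = 0.0522). With slide as a block Pdk4 was called (1.13, adjusted p = 0.0304), and over 33 settings it was called in 7. Slc2a1, the basal glucose transporter GLUT1, was at 8.19, 8.41, 8.23, 8.15 and 8.35 against 7.30 to 8.07 (median 7.74). These sets did not overlap either, but the difference of 0.50 (standard error 0.12) was not called (adjusted p = 0.0717). The insulin-dependent transporter Slc2a4 was at −0.08 and hexokinase Hk2 at 0.07, with adjusted p-values of 0.957 and 0.962. Of 24 genes of glucose transport, glycolysis and pyruvate, a list without Fbp2, 1 was higher (4.17%, against 0.357% of all genes) and 0 were lower. The median of this list was 0.03.

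Of 14 lipogenic LXR targets tested, 0 were called, and their median was 0.05. With 0.689% of all genes called, a count of 0 does not set this list, or any other described here, apart from all genes. Scd1, the desaturase that makes monounsaturated FA, was at 9.38, 8.76, 9.01, 9.85 and 8.77 on the high arrays and at 7.09 to 9.80 (median 8.25) on the low ones, a difference of 0.87 (standard error 0.42, adjusted p = 0.578 from limma). The sets overlapped over most of that range. Scd4, a desaturase known from the heart, was at −1.40 (adjusted p = 0.0943) and Mlxipl, the glucose-sensing factor ChREBP, at −0.57 (adjusted p = 0.0842). Of 12 targets of lipid transport and membranes, 0 were called, and the median was 0.01, with Apoc1, an apolipoprotein that the liver makes too, farthest from it at 1.42 (adjusted p = 0.555). Srebf1 was detected on 2 arrays and Fasn on 1, too few to be tested, and Abca1 and Cd36 on 0. The coactivator Ppargc1a was at 0.38 (standard error 0.23, adjusted p = 0.728). All 10 genes of cholesterol synthesis that were tested lay above 0, with a median of 0.23, but 0 were called. At an unadjusted p under 0.05, 5 of the 10 were higher, against 4.42% of all genes, among them Fdps at 0.31 and Sqle at 0.46. Over the same 33 settings the median of this list lay between 0.14 and 0.40.

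The sterol 27-hydroxylase Cyp27a1, a mitochondrial enzyme whose oxysterol products can bind LXR, did rise. It was at 9.38, 8.96, 8.83, 9.27 and 8.90 against 7.73 to 8.56 (median 8.21), with no overlap. The change was 0.91 (standard error 0.15, adjusted p = 0.00892 from limma), and other Cyp27a1 probes gave 0.91 and 0.75. Without Wt sham replicate 3 and LXRα-Tg TAC replicate 1 together it was 0.72 (adjusted p = 0.108). St3gal5, which makes the ganglioside GM3, rose by 0.95 (standard error 0.16, adjusted p = 0.00987), from a low median of 8.51 to between 9.32 and 9.94. A second St3gal5 probe, detected on 13 arrays, gave 0.55. Plin3, a coat protein of lipid droplets, fell by 0.64 (standard error 0.11, adjusted p = 0.0105), a call that was lost without LXRα-Tg sham replicate 3 (−0.58, adjusted p = 0.0618).

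Among genes of excitation, Scn4b, the β4 subunit of sodium channels, was at 7.87, 4.93, 6.27, 6.93 and 6.40 on the high arrays and at 8.18 to 9.22 (median 8.69) on the low ones. It was not detected on LXRα-Tg sham replicate 3, and its high arrays spread more widely than its low ones (SD 1.07 and 0.32). Scn4b fell by 2.28 (standard error 0.35, adjusted p = 0.00394 from limma). Cacna1h, the pore of a T-type calcium channel that the fetal heart expresses, was at 7.49, 7.34, 6.93, 7.12 and 7.24 against 5.72 to 6.58 (median 6.11). It rose by 1.11 (standard error 0.15, adjusted p = 0.00154), and the sets did not overlap. Jph1, a junctophilin of skeletal muscle, rose by 0.74 (adjusted p = 0.0218), a call kept in 9 of 13 fits with 1 array left out. Jph1 was detected on 4 of 8 low arrays, and its sets overlapped. Of 26 genes of calcium handling and ion channels, a list without Cacna1h and Jph1, 1 was lower (3.85%, against 0.332% of all genes) and 0 were higher. Of the 26, 21 lay below 0, and the median was −0.17.

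Of the contractile and fetal genes, Myl1, a myosin light chain of fast skeletal muscle, was at 10.52, 11.09, 10.81, 10.83 and 11.09 against 11.43 to 12.28 (median 11.77). Myl1 fell by 0.93 (standard error 0.16, adjusted p = 0.00955 from limma), and without Wt sham replicate 3 and LXRα-Tg TAC replicate 1 the change was −0.78 (adjusted p = 0.106). Rpl3l, the muscle-specific form of a ribosomal protein, was at 12.74, 12.25, 12.31, 12.77 and 12.40 against 12.85 to 13.67 (median 13.36) and fell by 0.83 (standard error 0.14, adjusted p = 0.00920). The Z-disc protein Pdlim5 fell by 0.66 (adjusted p = 0.0105), but its other probes gave −0.59, −0.50 and 0.05. Ctf1, cardiotrophin 1, a cytokine that makes cardiomyocytes grow, was at 6.50, 6.25, 6.19, 6.28 and 6.20 against 6.91 to 7.42 (median 7.13) and fell by 0.87 (standard error 0.11, adjusted p = 0.00119).

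The natriuretic peptides that mark hypertrophy were not called. Nppb was at 13.89, 14.51, 14.21, 14.32 and 14.43 on the high arrays and at 12.33 to 14.46 (median 12.94) on the low ones, a difference of 1.04 (standard error 0.36, adjusted p = 0.336 from limma). Nppa differed by 0.84 (standard error 0.42, adjusted p = 0.617), skeletal actin Acta1 by 0.69 (adjusted p = 0.895), and the β-myosin gene Myh7 was at −0.87 (adjusted p = 0.812). For each of these genes high and low arrays overlapped. Of 24 fetal and hypertrophy genes 1 was lower, Myl1 (4.17%, against 0.332% of all genes). The median was −0.03, but without Wt sham replicate 3 it was 0.16. The collagen gene Col1a1 was at 0.03 (standard error 0.33), the growth factor Ccn2 at 0.42 (standard error 0.39) and the calcineurin regulator Rcan1 at −0.08 (standard error 0.45). Of 35 matrix and fibrosis genes 0 were called, with a median of 0.02, and 0.21 without Wt sham replicate 3. P3h4, which takes part in collagen modification, fell by 0.96 (standard error 0.16, adjusted p = 0.00738), from a low median of 7.40 to between 5.99 and 6.83. The cardiac transcription factors Gata4, Nkx2-5 and Mef2c were at 0.18, 0.02 and −0.0044, with adjusted p-values of 0.773, 0.998 and 0.998. The survival gene Bcl2 was at 0.96 (standard error 0.21, adjusted p = 0.0577), with 6.47 to 7.30 on the high and 5.59 to 6.73 on the low arrays.

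**Figure D4:**
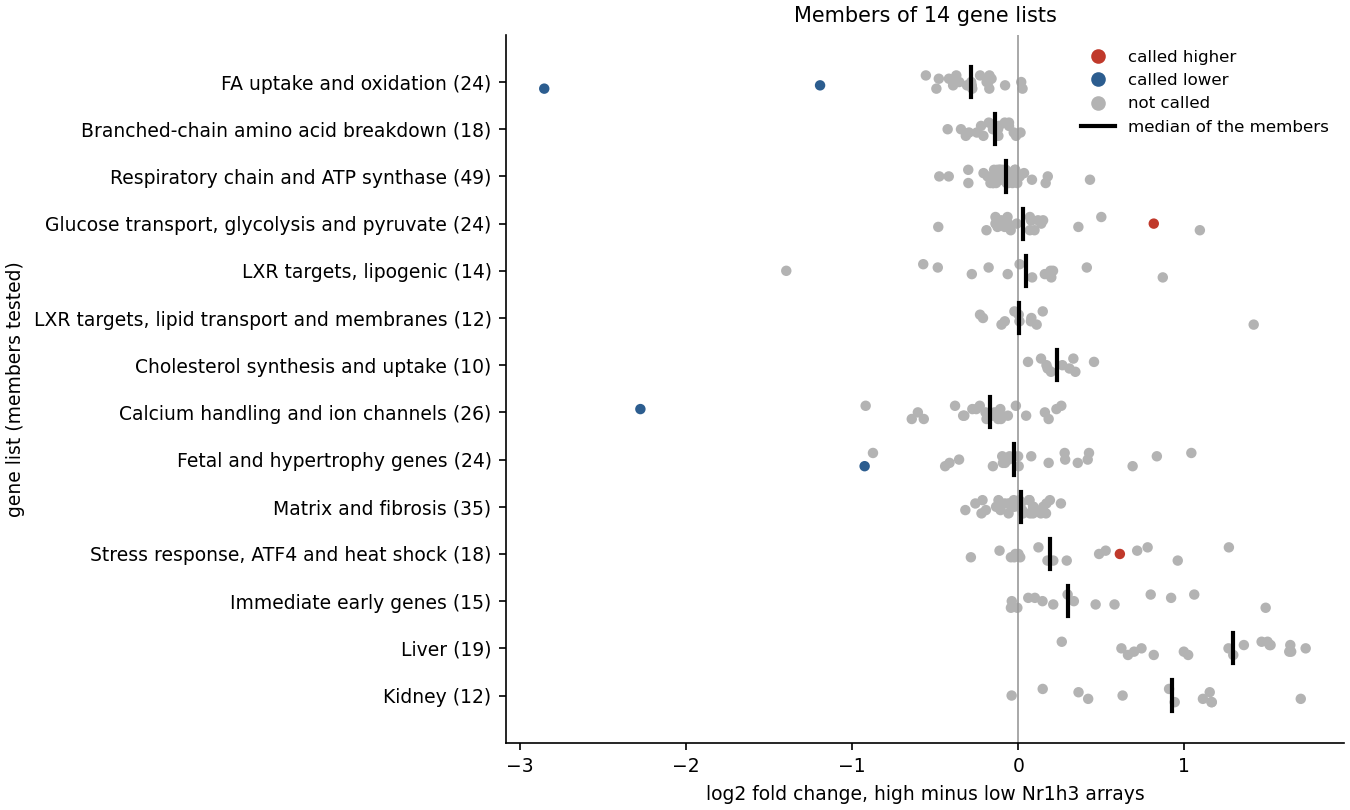
Log2 fold change, high minus low arrays, of the tested members of 14 gene lists (number tested in brackets), with red points called higher, blue points called lower, grey points not called and black bars at the list's median. FA uptake and oxidation lies to the left (median −0.28), cholesterol synthesis to the right (0.23), and the LXR target lists around 0 (0.05 and 0.01); the liver and kidney lists, at 1.30 and 0.93, hold no called gene.

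Abat, which breaks down GABA in mitochondria, was at 8.42, 8.39, 8.40, 8.22 and 8.07 against 6.63 to 7.41 (median 7.03). Abat rose by 1.29 (standard error 0.12, adjusted p = 0.000117 from limma), and a second detected probe gave 0.77. Slc38a3, a glutamine transporter, rose by 0.83 (standard error 0.12, adjusted p = 0.00198), from a low median of 7.29 to between 7.85 and 8.37. Of 18 genes of the stress response, ATF4 and heat shock, 1 was higher, the pseudokinase Trib3 (5.56%, against 0.357% of all genes), and 0 were lower. Trib3, detected on 0 low arrays, passed the detection minimum through the high arrays alone, so that this share is no support for the list. Its call was kept in 2 of 13 fits with 1 array left out. At an unadjusted p under 0.05, 6 of the 18 were higher (33.3%, against 4.42%), and the median was 0.19. Chac1, which degrades glutathione, was at 1.27 (adjusted p = 0.0810) and Asns, asparagine synthetase, at 0.96 (adjusted p = 0.103), both without overlap between the sets. Of 29 glutathione and antioxidant genes 1 was called lower (3.45%, against 0.332% of all genes) and 0 were higher. The one called was Gsta4, a transferase that clears lipid aldehydes, at −0.75 (standard error 0.11, adjusted p = 0.00198 from limma). Gsta4 was at 9.16, 8.70, 9.15, 9.0 and 8.98 against 9.62 to 9.93 (median 9.73). Gstm6, another transferase, rose by 0.52 (adjusted p = 0.0328). Of 15 immediate early genes 0 were called, with a median of 0.30, but −0.46 on slide 1 alone.

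Nuclear genes included Cenpa, the histone H3 variant of centromeres, at 9.87, 10.21, 10.14, 10.16 and 9.96 against 10.74 to 11.21 (median 11.04). Cenpa fell by 0.96 (standard error 0.10, adjusted p = 0.000204 from limma), and every high array lay below every low one. Hat1, a histone acetyltransferase, rose by 0.67 (standard error 0.10, adjusted p = 0.00220), from a low median of 10.05 to between 10.52 and 10.87. Rfx2, a transcription factor of ciliated cells, rose by 0.91 (standard error 0.14, adjusted p = 0.00564). Dnaic1, a dynein chain that moves cilia, fell by 1.003 (standard error 0.13, adjusted p = 0.00119) and was detected on 2 of 5 high and 8 of 8 low arrays. A second Dnaic1 probe, detected on 9 arrays, gave −0.62. Cbwd1 was at 6.30, 6.50, 6.44, 6.29 and 6.52 against 7.16 to 7.56 (median 7.34), and fell by 0.95 (standard error 0.10, adjusted p = 0.000149), with an SD of 0.11 on the high and 0.15 on the low arrays. Magix, a PDZ domain protein, fell by 0.93 (standard error 0.15, adjusted p = 0.00720), and Tesc, a calcium-binding protein, by 0.73 (standard error 0.14, adjusted p = 0.0286), a call kept in 6 of 13 fits with 1 array left out.

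The remaining called genes are given by their log2 fold changes. Those that rose were Rnf208 (0.83), Jazf1 (0.82), the signalling regulator Rgs12 (0.67), the interleukin 13 receptor subunit Il13ra1 (0.62), Aagab (0.59) and the lysosomal transporter Abcb9 (0.53). Those that fell were Armt1 (−0.65), the small GTPase Rab12 (−0.64), the ephrin Efnb3 (−0.64), Tmem208 (−0.61), Tsc22d4 (−0.60), Yif1b (−0.55), the G protein subunit Gna12 (−0.52), Fbxo6 (−0.47) and Ppp1r14a, an inhibitor of myosin phosphatase (−0.43). Of these, Rnf208 and Ppp1r14a overlapped between the sets and the others did not. A second Aagab probe, detected on 13 arrays, gave 0.33. Jazf1 was detected on 3 and Rnf208 on 5 of 8 low arrays, and Efnb3 on 2 and Ppp1r14a on 3 of 5 high arrays. The size of the fold is uncertain for these genes. Several calls among the remaining genes were not stable when 1 array was left out. Over the 13 such fits Tsc22d4 was called in 1, Rnf208 and Aagab in 2, Gna12 in 3, Efnb3 and Fbxo6 in 4, Abcb9 and Ppp1r14a in 6 and Il13ra1 in 10. With slide as a block the calls of Rnf208 (adjusted p = 0.0519) and Aagab (adjusted p = 0.0521) were lost, as were those of Trib3 and Crocc (both 0.0519). Of all 54 called genes, 35 were detected on all 13 arrays, and 47 belong to none of the 21 pathway lists. In the 15 pathway lists without a called gene the median ran from −0.14 to 0.30.

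Whether the difference between high and low arrays was itself different on sham and on TAC arrays was tested for each gene. In this test 0 of 7836 genes were called (0%, limma), and 644 (8.22%) passed at an unadjusted p under 0.05. Only 2 high arrays carry the sham label, which limits this test. The surgery label was taken as given, here and as a covariate. On the low arrays Nppa signal was 6417.5, 6890.1, 32018.6 and 27063.2 under the sham label and 7288.6, 7155.6, 19333.5 and 10763.4 under TAC. On the high arrays it was 9427.4 and 20024.5 under sham and 31119, 24565.2 and 28830.6 under TAC. Among low arrays, Nppa was highest on LXRα-Tg sham replicates 1 and 2 and Wt TAC replicate 4. These arrays also held the lowest log2 values of the low set for Fbp2 (8.10, 8.06 and 8.14) and Acot1 (7.57, 7.66 and 9.23). Whether the label holds for each array, or whether these genes follow Nppa, was not tested. All 54 genes called on the 13 arrays together had the same sign on the sham and on the TAC arrays, and on both slides, as the choice of genes on all arrays favours. Acot1 differed by −1.999 on the sham and −3.52 on the TAC arrays, Fbp2 by −2.44 and −2.70, and Wif1 by 2.14 and 2.40. Magix differed by −0.51 on sham and −1.26 on TAC arrays, with an unadjusted p of 0.00823 for the interaction and an adjusted p of 0.561 from limma. On the sham arrays alone 3 genes were called (Trpm6, Wif1 and Tmprss13) and on the TAC arrays alone 25.

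Markers of other organs were not called but lay higher on the high arrays. Of 19 liver genes tested all 19 lay above 0, with a median of 1.30, and of 12 kidney genes 11 did, with a median of 0.93. At an unadjusted p under 0.05, 10 of the 19 liver genes (52.6%) and 6 of the 12 kidney genes were higher, against 4.42% of all genes, among them Apoa1, the main protein of high-density lipoprotein (1.73, standard error 0.70, adjusted p = 0.452 from limma). The summed liver signal was 20250.2, 5940.7, 2389.5, 21320.1 and 3149.8 on the high arrays and 1200.1 to 10691.2 on the low ones, and the kidney sum was 3465, 973.7, 718.4, 1699.4 and 546.4 against 544.2 to 1198.7. Wt sham replicate 3 and LXRα-Tg TAC replicate 1 thus held the high values, and without both the medians were 0.36 for liver and 0.07 for kidney. Without these 2 arrays 54 genes were called, 36 of them among the 54 named here, Trpm6, Klk1b26, Wif1, Fstl4, Acot1, Acot2, Fbp2, Scn4b and Lgals3 included. The red cell genes Alas2, of haem synthesis, and Hba-a1, a globin, were at 0.92 and 0.60 (adjusted p = 0.0700 and 0.310). The medians of 12 ventricular (−0.05), 12 atrial (−0.08), 12 fibroblast (0.04), 11 endothelial (−0.02), 11 smooth muscle (−0.04) and 7 adipocyte markers (0.07) lay near 0, with 0 called. With the mean level of the liver and kidney markers as a covariate 48 genes were called, 38 of them among the 54.

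**Figure D5:**
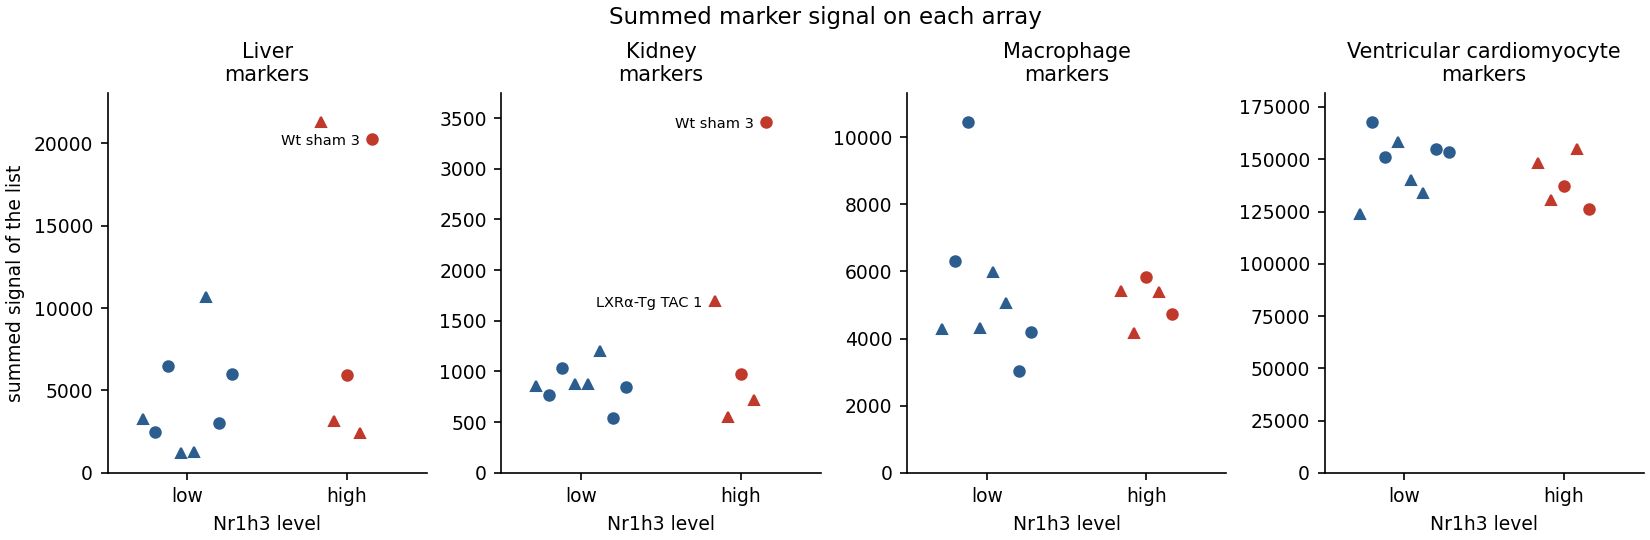
Summed background-subtracted signal of the liver, kidney, macrophage and ventricular cardiomyocyte marker lists on each array, low arrays in blue and high arrays in red, circles sham and triangles TAC. Wt sham replicate 3 and LXRα-Tg TAC replicate 1 lie above all other arrays for liver (20250.2 and 21320.1) and kidney markers (3465 and 1699.4), while the macrophage and ventricular sums overlap.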

How the data were processed

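Total RNA of mouse LV was labelled with biotin and read on 13 Illumina BeadChip arrays. The authors deposited a table of linear signal intensity, background-subtracted in GenomeStudio 2011.1 (the submitters' processing notes) and not normalised between arrays, with a detection p-value per probe that the authors' software gave. The other table has intensity values that the authors had processed further, which rank the probes as the first does and share 1 distribution, and served as an alternative.

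Signals were corrected and quantile normalised with neqc of limma 3.58.1 (R 4.3.3; offset 16; controls estimated through the detection p-values), which gives the normalised log2 intensity. Of 25697 probes, 23978 had 1 gene symbol and 1719 none in the platform annotation. Probes detected (p under 0.01) on at least 3 arrays were kept (10422 with a symbol), and the brightest stood for its gene. The Nr1h3 level and surgery entered one limma model (lmFit, eBayes; residual degrees of freedom 10), and p-values were adjusted over all 7836 genes. The code was tested on simulated data. Lists (21 of pathways and 12 of cell type markers) were counted, not tested. Named genes were the 15 called genes that rose most and the 15 that fell most, up to 4 called members per list, and the genes that the paper names. Others, the remaining called genes and list members among them, were chosen after their values were seen. The members and lists were chosen with earlier results of these data known. The methods text used here names no array analysis, and its paired t-test was run unpaired as an alternative. Probe coordinates were not used. Figures were drawn with matplotlib 3.10.9. Nr1h2 was not analysed here.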

Additional observations from a re-analysis of the deposited data

Results flagged for a closer look

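In 8 of 132 sets of arrays examined, 1 array stood apart from the rest of its set by Dixon's criterion, and chance alone flags about 1 in 20 groups. Among genes, these were Ctf1 on Wt sham replicate 3, at 6.504 where the nearest other high array was at 6.279, and Tsc22d4 on LXRα-Tg TAC replicate 1, at 7.401 against 7.815. On the low arrays they were Dnajc5b (5.169 against 4.614) and Lad1 (5.259 against 4.718) on Wt sham replicate 1, Jazf1 on LXRα-Tg sham replicate 2 (5.548 against 5.108) and Wif1 on LXRα-Tg TAC replicate 3 (6.727 against 5.843). For Ctf1, Dnajc5b, Lad1, Jazf1 and Wif1 the array apart lay towards the other set, and none of them crossed into it. The summed signal of atrial markers was 16730 on Wt sham replicate 3 against 33530 on the nearest high array. That of macrophage markers was 10460 on LXRα-Tg sham replicate 2, a low array, against 6312 on the next.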

How the results depend on the processing

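The 54 called genes kept their sign in each setting in which they could be fitted, except with the genotype label in place of the level, where 52 did. Their choice on these same arrays favours this. The count of 54 moved to 1 on slide 1 alone, 2 on slide 2 alone, 3 on the sham arrays alone and 25 on the TAC arrays alone, each with fewer arrays. It moved to 7 with a fold minimum of 1.5 and to 95 with array weights, and the cause was not tested. With the genotype label, added after seeing the data, it was 0. The methods' t-test passed 675 genes at a threshold of 0.05 and 51 after Benjamini-Hochberg adjustment. Left-out fits gave 42 to 63 calls, and 37 of the 54 genes were called in all 13. The count was 58 with slide as a block (50 of the 54 among them), 62 on the authors' processed values, 46 on arrays whose level goes with the genotype label (29 of the 54), 48 without the arrays lacking Eif2s3y and 55 with median scaling, of which 61.8% were higher against 51.9%. For the difference between sham and TAC arrays, leaving out 1 array gave 0 calls, or 1 without LXRα-Tg sham replicate 2. Fits without LXRα-Tg sham replicate 3 or without Wt sham replicate 3 left 1 high sham array and are not counted here. No paired analysis was possible because the labels carry no replicate numbers, and those used here only follow the order of the arrays.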

Other observations

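Genes just short of the threshold included Rnf222 at 0.64, Hemk1 at −1.02, Armh4 at −0.91, P4ha1, a subunit of the enzyme that hydroxylates collagen prolines, at 0.83 and Ap5s1 at −0.45, with adjusted p-values from limma of 0.0522, 0.0522, 0.0522, 0.0536 and 0.0579. They were chosen after their values were seen. In RefSeq order Acot1 and Acot2 had 0 genes between them, and both fell. Yif1b and Ppp1r14a had 3 between them, and both fell. Tmprss13 and Scn4b had 5 between them, and the former rose by 1.46 while the latter fell by 2.28.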
